A study of Homo sapiens with 6 samples.

Results

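The genes described here encode 10 subunits of the BAF chromatin remodeling complex: ACTL6A, SMARCA2, SMARCA4, SMARCB1, SMARCC1, SMARCC2, SMARCD1, SMARCE1, ARID1A and ARID1B. They were taken by name from the 19777 genes measured on the array, with every probe set annotated to that gene alone, 44 of 41091 such probe sets. The set was chosen by complex membership and by the measured intensities of ING2 siRNA against control in these same arrays, so the values of the 10 genes in that comparison are given as a description, without a p-value. Messenger RNA came from MDA-MB-231, an established human breast cancer line, and was measured on 6 one-colour oligonucleotide arrays. The 3 control samples were transfected with a non-targeting siRNA and the 3 others with 1 commercial siRNA directed at ING2, a PHD finger protein of a SIN3 histone deacetylase complex. All 6 samples share the cell line and the array platform, and the labels give the time of collection as 4 days after transfection in one protocol and 3 days in another. With 1 siRNA per target, an effect of losing ING2 and an effect of that siRNA on other transcripts cannot be told apart. The labels do not state separate cultures, so the p-values speak only to the spread among these samples, and that spread may be technical.

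BAF complexes, the mammalian SWI/SNF remodelers, use the energy of ATP to slide or evict nucleosomes and so open promoters and enhancers to transcription factors. A complex holds 1 of the alternative ATPases SMARCA4 (BRG1) or SMARCA2 (BRM), a core of SMARCC, SMARCD, SMARCB1 and SMARCE1 proteins, and an ARID1 subunit that defines the canonical BAF form. ACTL6A (BAF53A) is an actin-related protein that binds the ATPase together with actin. It is also a subunit of the INO80 remodeler and the NuA4 acetyltransferase, and it is known for keeping progenitor cells undifferentiated and for gene amplification in squamous carcinoma.

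The arrays had median intensities of 75.6 to 77.1 units in controls and 78.3 to 81.4 units after ING2 siRNA (exact two-sided permutation p = 0.1, the smallest possible with 3 arrays against 3). In the GAPDH control probe sets, which report RNA integrity, the excess of 3' over 5' signal was 0.193 to 0.222 log2 units in controls and 0.269 to 0.352 with ING2 siRNA (exact permutation p = 0.1). In the ACTB control probe sets it was 0.366 to 0.578 and 0.483 to 0.652, with overlapping groups (exact permutation p = 0.6). The interquartile range of log2 values over each array was 3.33 to 3.38 in controls and 3.11 to 3.27 with ING2 siRNA (exact permutation p = 0.1). The share of these measures in the changes given here was not tested. ING2, the targeted gene, read 1399.7, 1349 and 1324 units in controls and 163, 188 and 161 units with its siRNA, which is 12.5% of control (limma adjusted p = 1.85e-07). The 6 markers of a mesenchymal line (VIM, CD44, CAV1, SNAI2, ITGB1 and FN1) lay at percentiles 84.5 to 99.6 of genes by intensity. Among markers of the luminal or hormone-responsive state, PGR lay at percentile 5.50, FOXA1 at 14.5, CDH1 at 24.3, ESR1 at 40.9, GATA3 at 55.6 and ERBB2 at 73.4. Summed intensity of the 6 mesenchymal markers was 47966 to 51800 units in controls and 42528 to 47705 units after ING2 siRNA. For 6 fibroblast markers the sums were 926 to 1036 and 960 to 975 units, and for 4 measured blood markers 303 to 329 and 339 to 342 units. Within these marker lists LUM (log2 change -0.87, limma adjusted p = 0.0205), LYZ (-0.51, 0.0487) and the mesenchymal marker SNAI2 (-0.36, 0.0368) fell and DCN (0.35, 0.0349) rose. No probe set reads 0 on these arrays, and the part of these shifts in the results was not tested. In bulk RNA, fewer cells with a transcript and less of it per cell cannot be told apart.

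Upstream sequences are shown for 4 of the genes, because they show the start of one subunit called higher (ARID1A), one called lower (SMARCE1), and both alternative ATPases (SMARCA4 and SMARCA2), neither of which was called. Each is the 250 bases before the most upstream transcript start in the RefSeq promoter table (GRCh38.p14), 5′ to 3′ on the gene's strand. That table held 12 starts for 7 of the 10 genes, with 4 for SMARCA2, 2 each for SMARCA4 and ARID1B and 1 each for ARID1A, SMARCB1, SMARCD1 and SMARCE1, and none for ACTL6A, SMARCC1 or SMARCC2. Capitals mark matches on either strand to the GC box with letters GGGCGG, the CCAAT box with letters CCAAT, the TATA box with letters TATAAA or the ETS core with letters CCGGAA.
ARID1A, chr1:26695765-26696014, plus strand: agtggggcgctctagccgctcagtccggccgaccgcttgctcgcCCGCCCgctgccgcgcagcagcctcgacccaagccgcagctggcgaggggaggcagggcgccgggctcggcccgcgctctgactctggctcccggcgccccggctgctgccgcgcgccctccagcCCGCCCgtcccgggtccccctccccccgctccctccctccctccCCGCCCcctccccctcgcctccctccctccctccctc
SMARCE1, chr17:40647819-40648068, minus strand: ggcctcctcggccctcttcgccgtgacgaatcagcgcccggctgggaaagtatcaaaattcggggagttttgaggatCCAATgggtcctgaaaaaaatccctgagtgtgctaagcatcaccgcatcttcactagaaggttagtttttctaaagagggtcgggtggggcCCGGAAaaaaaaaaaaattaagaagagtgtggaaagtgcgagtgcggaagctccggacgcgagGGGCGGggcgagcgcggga
SMARCA4, chr19:10960780-10961029, plus strand: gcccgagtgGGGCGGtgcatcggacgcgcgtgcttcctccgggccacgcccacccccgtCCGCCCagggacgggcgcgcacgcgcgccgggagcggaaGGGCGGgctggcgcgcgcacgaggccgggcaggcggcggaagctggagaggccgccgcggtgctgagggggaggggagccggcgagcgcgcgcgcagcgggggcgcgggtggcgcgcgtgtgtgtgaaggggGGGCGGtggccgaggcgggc
SMARCA2, chr9:2015097-2015346, plus strand: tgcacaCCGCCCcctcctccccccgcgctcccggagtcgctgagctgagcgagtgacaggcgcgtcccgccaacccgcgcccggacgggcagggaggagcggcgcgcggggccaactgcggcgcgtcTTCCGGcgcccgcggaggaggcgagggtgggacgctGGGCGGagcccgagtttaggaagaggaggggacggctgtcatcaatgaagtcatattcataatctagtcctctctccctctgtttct

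The ARID1A window held 3 GC boxes and none of the other motifs, and the SMARCA4 window 4 GC boxes and none of the others. The SMARCE1 window held 1 GC box, 1 CCAAT box and 1 ETS core, and that of SMARCA2 held 2 GC boxes and 1 ETS core. The share of G and C was 80.4% for ARID1A, 82.4% for SMARCA4, 54.4% for SMARCE1 and 68.8% for SMARCA2, against a median of 58.0% over all 35116 windows in the table. In the most upstream windows not printed it was 38.8% for ARID1B, 70.4% for SMARCD1 and 58.0% for SMARCB1. The ARID1B window had the lowest share of these 7. The window of the other ARID1B start, further downstream, had a share of 76% and held 4 GC boxes. The low share therefore holds for the most upstream ARID1B start only, and which start gave the signal was not tested. GC boxes were present in 6 of the 12 windows of the BAF genes and in 42.6% of all windows, CCAAT boxes in 3 and 32.0%, ETS cores in 4 and 14.5%, and TATA boxes in 1 and 10.7%. The windows are described as sequence only, and no binding was measured.

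ACTL6A, the actin-related subunit, had the lowest signal relative to control among the 10 genes, at 51.9% of control after ING2 siRNA. It was itself chosen for its change in this comparison, so its place among the 10 is a description only. Its only probe set, 202666_s_at, read 845, 976 and 1254 units in control replicates 1, 2 and 3. After ING2 siRNA it read 423, 617 and 554 units. The highest ING2 siRNA value was below the lowest control value, so the groups did not overlap. On the log2 scale the mean was -0.95 relative to control (limma SE 0.16, n = 3 per group, as for each log2 change given here), and the SD was 0.29 in controls and 0.28 after ING2 siRNA. Over fits that each left out 1 array the log2 difference ran from -1.08 to -0.79. Since no other probe set names ACTL6A alone, these arrays hold no second measurement of the transcript.

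ACTL6A also stood below the average of the other 9 genes on every ING2 siRNA array. Because ACTL6A was chosen for its change, a gap of this kind follows in part from the choice and was not tested. Relative to their control means, the other 9 genes averaged 0.02, 0.13 and 0.17 log2 units after ING2 siRNA, where ACTL6A read -1.26, -0.71 and -0.87. The gap between ACTL6A and that average was -1.27, -0.84 and -1.04 on the 3 ING2 siRNA arrays, against -0.21, -0.10 and 0.30 on the control arrays. ING2 siRNA replicate 1 had the lowest ACTL6A signal and control replicate 3 the highest.

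**Figure D1:**
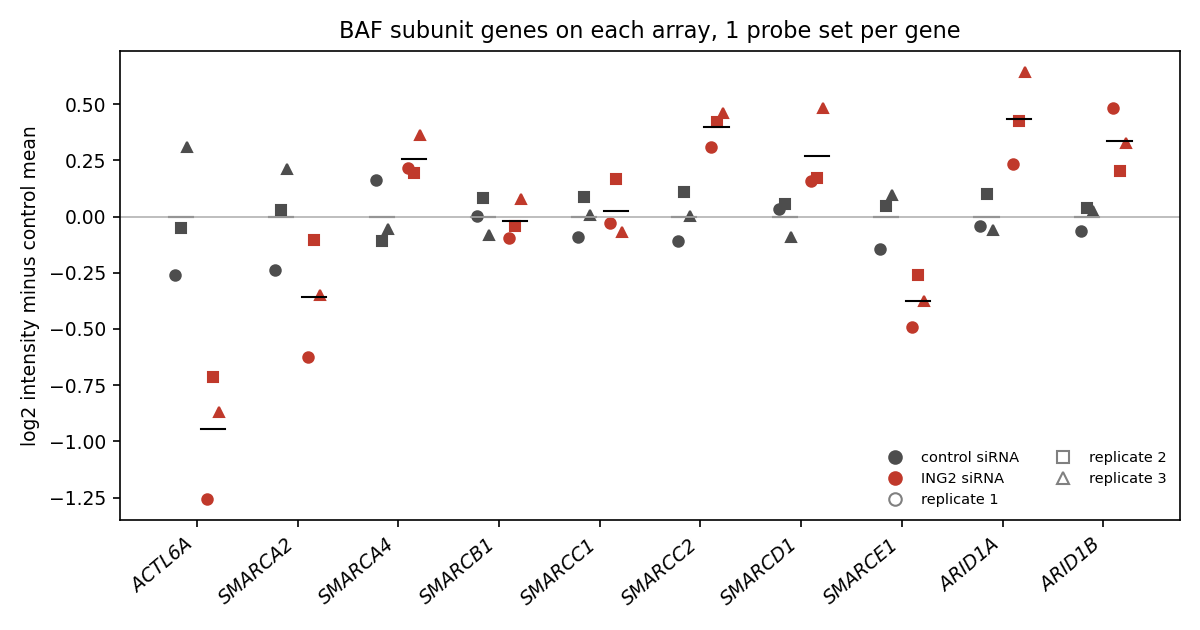
Log2 intensity of each of the 10 BAF subunit genes (x axis) on each array, minus that gene's control mean (y axis); grey points are control siRNA, red points ING2 siRNA, the point shape gives the replicate and black bars are group means. ACTL6A at -0.95 lies apart from the other genes, whose ING2 siRNA means run from -0.38 for SMARCE1 to 0.43 for ARID1A.

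Among 9732 genes at or above the median intensity, with ACTL6A itself and identifiers beginning LOC or LINC or of the open reading frame type left out, the 5 most like ACTL6A over the 6 arrays were TAF13, RP2, MIGA1, PCNX4 and MIS18A. Likeness was the root mean square difference of log2 values after subtracting each gene's control mean. It was 0.07 log2 units for TAF13, a TFIID subunit, which read 1654, 1825 and 2485 units in controls and 890, 1202 and 987 units after ING2 siRNA. For RP2, a GTPase-activating protein for ARL3, it was 0.08, for the mitochondrial fusion factor MIGA1 0.08, for PCNX4 0.09 and for MIS18A, which acts in loading the centromeric histone CENP-A, 0.11. Their log2 changes lay between -0.94 (TAF13) and -0.86 (PCNX4). The ranking used the ING2 siRNA arrays too, so changes near that of ACTL6A follow from the way these genes were picked. Of the BAF genes, SMARCA2 ranked nearest to ACTL6A at place 743 (0.42 log2 units), followed by SMARCE1 at place 798 (0.43), and ARID1A was the farthest at place 9665 (1.00).

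Neither of the alternative ATPases passed the limma threshold. SMARCA4 was at 119% of control and SMARCA2 at 78.0% with the probe set used for each gene. SMARCA4 (214728_x_at) read 1254, 1036 and 1078 units in controls and 1297, 1281 and 1437 units with ING2 siRNA, so the log2 change was 0.26 (SE 0.10). All 3 ING2 siRNA values were above all control values, the closest pair being control replicate 1 and ING2 siRNA replicate 2. SMARCA2 (217707_x_at) read 365, 439 and 498 units in controls and 280, 401 and 338 units with ING2 siRNA, so the log2 change was -0.36 (SE 0.15). Its groups overlapped, since ING2 siRNA replicate 2 was above control replicate 1. SMARCA2 followed the order of ACTL6A over the arrays, with replicate 1 lowest and replicate 3 highest in controls, and replicate 1 lowest and replicate 2 highest after ING2 siRNA. SMARCE1 and RP2 had the same order, so it was not particular to SMARCA2. The difference between both ATPases, relative to control means, was 0.84, 0.30 and 0.71 log2 units on the ING2 siRNA arrays and 0.40, -0.14 and -0.26 on the controls. Control replicate 1 exceeded ING2 siRNA replicate 2 in that difference, so these groups overlapped too.

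Several probe sets per ATPase gave a mixed picture. Of 9 SMARCA4 probe sets, 7 had a change above 0 and 4 did not overlap between groups, all of these higher. As background for this and the counts per gene below, 12194 of 19777 genes had a change above 0. Over all probe sets, 32.8% did not overlap between groups. The changes of the 9 SMARCA4 probe sets ran from -0.20 for 212520_s_at to 0.33 for 214360_at, which read only 34 to 48 units. Their median was 0.10. Leaving out probe sets of the _x_at class, whose probes can bind other transcripts, put SMARCA4 at -0.03 instead of 0.26, and the most variable probe set put it at -0.20. Of 7 SMARCA2 probe sets, 5 had a change below 0, and 3 of them did not overlap between groups. The largest of these was in 206544_x_at, with a log2 change of -0.49. It read 373, 386 and 366 units in controls and 235, 277 and 293 units with ING2 siRNA. Another of the 3, the dim 206543_at (10 to 14 units), was designed on the same sequence record, so these 2 are not separate measurements. By contrast 212258_s_at read 135, 117 and 125 units in controls and 155, 134 and 170 units with ING2 siRNA. That change was 0.28, with overlapping groups. The table used here does not say which of the 4 SMARCA2 starts each probe set reports.

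In the core of the complex, both SMARCC scaffold proteins, which dimerise and hold the other subunits, had different values. SMARCC2 (BAF170) was at 132% of control. It read 551, 641 and 597 units in controls and 737, 797 and 819 units with ING2 siRNA (201320_at), so the log2 change was 0.40 (SE 0.09) with no overlap. Of its other probe sets, 201321_s_at had a change of 0.24 and the dim 1561973_at a change of -0.05, both with overlapping groups. SMARCC1 (BAF155) was at 102% of control, with 946, 1068 and 1010 units in controls and 987, 1131 and 959 units after ING2 siRNA (log2 change 0.02, SE 0.09). Its other 3 probe sets lay from -0.21 to -0.11, and in the first of these, 201075_s_at, the groups did not overlap.

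SMARCB1 (SNF5), the core subunit lost in rhabdoid tumours, was at 98.6% of control. It read 403, 425 and 380 units in controls and 376, 390 and 425 units with ING2 siRNA, so the log2 change was -0.02 (SE 0.09). A dimmer SMARCB1 probe set, 206532_at, had a change of -0.39, and the groups overlapped in all 3 of its probe sets. SMARCD1 (BAF60A), which links the core to transcription factors, was at 121% of control. Its values were 348, 353 and 318 units in controls and 378, 382 and 473 units with ING2 siRNA, so the log2 change was 0.27 (SE 0.10), with no overlap and replicate 3 the highest. The second SMARCD1 probe set had a change of 0.14.

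SMARCE1 (BAF57), an HMG-box subunit that binds DNA, was at 77.1% of control. It read 1748, 1993 and 2062 units in controls and 1372, 1612 and 1488 units with ING2 siRNA (211988_at), so the log2 change was -0.38 (SE 0.10). Every ING2 siRNA value was below every control value. All 4 SMARCE1 probe sets had a change below 0, and 3 of them did not overlap. The other changes were -0.45 for 236016_at, -0.35 for 211989_at and -0.02 for 229511_at. Besides ACTL6A with its single probe set, SMARCE1 was the one gene of the 10 with a change below 0 in all of its probe sets.

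Both ARID1 subunits, which bind DNA and mark canonical BAF, had higher signal in their main probe sets. ARID1A, often mutated in carcinomas, was at 135% of control, with 525, 580 and 519 units in controls and 636, 726 and 844 units after ING2 siRNA (212152_x_at). Its log2 change was 0.43 (SE 0.11), with no overlap and replicate 3 the highest of the ING2 siRNA arrays. All 4 ARID1A probe sets had a change above 0, from 0.21 to 0.43, and 2 did not overlap. With the _x_at class left out, ARID1A had a change of 0.21 from 218917_s_at, whose groups overlapped. ARID1B was at 126% of control in 1566990_x_at, with 462, 497 and 492 units in controls and 675, 556 and 607 units after ING2 siRNA (log2 change 0.34, SE 0.09, no overlap). Of its 7 probe sets, 5 had a change above 0. Both that did not overlap, 1566990_x_at and 1566989_at (0.26), were designed on the same sequence record. Another, 225181_at, had a change of -0.36 with overlapping groups.

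**Figure D2:**
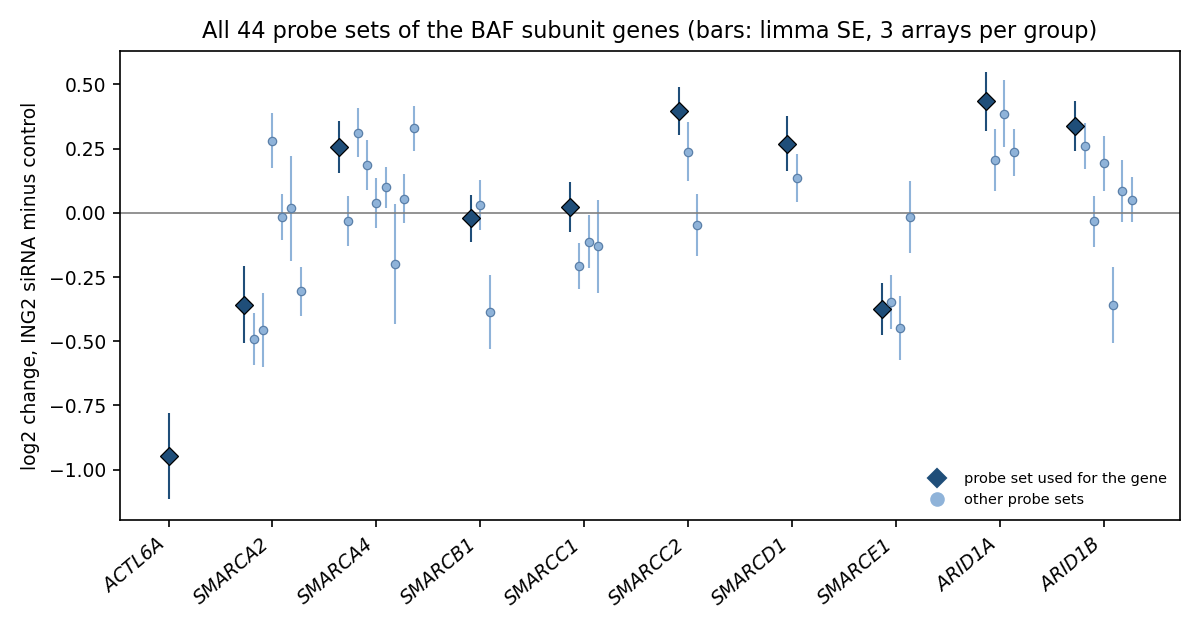
Log2 change, ING2 siRNA minus control (y axis), of all 44 probe sets of the 10 genes (x axis), ordered within a gene from brightest to dimmest; bars are limma standard errors from a fit over all probe sets, with 3 arrays per group, and diamonds are the probe sets used for the gene. All points lie below 0 for SMARCE1 and for ACTL6A with its single probe set, and above 0 for ARID1A and SMARCD1. Points of each of the other genes lie on both sides of 0.

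Across the 10 genes, the threshold of a limma adjusted p under 0.05 over all genes was passed by 4, with SMARCC2 and ARID1A higher and ACTL6A and SMARCE1 lower. The same threshold was passed by 8.29% of all genes, 3.62% higher and 4.67% lower. As the set was chosen with this comparison in view, nothing is read from the count. Groups did not overlap in 7 of the 10, 5 of them higher and 2 lower, against 36.5% of all genes, 22.8% higher and 13.8% lower. The median log2 change of the 10 was 0.14, and that of all genes 0.06. All 10 genes lay above the median intensity, from percentile 63.8 (SMARCD1) to 88.8 (SMARCE1). The 7156 genes at or above SMARCD1 in intensity had a median of -0.07, with 112 past the threshold as higher and 646 as lower. Tested one by one, 3 of the 44 probe sets passed over all probe sets (202666_s_at of ACTL6A and 206544_x_at of SMARCA2 lower, 201320_at of SMARCC2 higher), against 5.28% of all probe sets, and 18 did not overlap, against 32.8%.

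The count rested on single arrays and on the scaling. None of the 10 passed when control replicate 2, control replicate 3, ING2 siRNA replicate 1 or ING2 siRNA replicate 3 was left out, where 2 or 3 genes of the whole array did. Without control replicate 1 the count was 4 and without ING2 siRNA replicate 2 it was 6. After subtracting each array's median, ACTL6A and SMARCE1 passed and no gene of the 10 passed as higher. Over all genes that scaling gave 260 higher and 1450 lower calls, against 716 and 924 in the deposited values. After quantile normalization the split was 944 and 623, and both there and after cyclic loess ACTL6A, SMARCC2, ARID1A and ARID1B passed while SMARCE1 did not. The sign of 8 of the genes was the same under these 4 scalings. SMARCB1 read -0.02 in the deposited values, -0.09 after median centring, 0.07 after quantile normalization and 0.02 after cyclic loess. SMARCC1 read 0.02, -0.05, 0.14 and 0.11 in the same order.

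**Figure D3:**
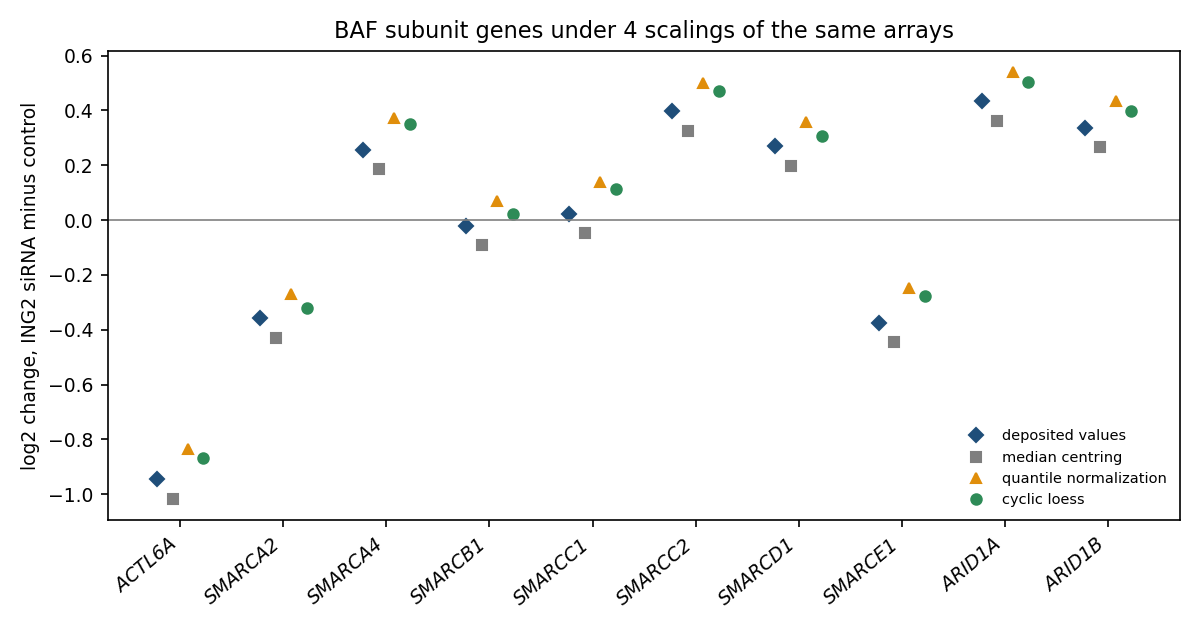
Log2 change, ING2 siRNA minus control (y axis), of the 10 genes (x axis) in the deposited values and under 3 other scalings of the same 6 arrays. ACTL6A lies between -1.02 and -0.84, and SMARCB1 and SMARCC1 lie on both sides of 0.

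The related lists, here and below, were also chosen with earlier results of these data known, so their adjusted p-values are given as a description. Of 21 other subunits of the mammalian SWI/SNF complexes, BICRA rose and SS18 fell, which is 9.52% of the list against 8.29% of all genes, and the median log2 change was 0.07. BICRA, a subunit of the non-canonical GBAF complex, read 143, 134 and 142 units in controls and 179, 177 and 184 units with ING2 siRNA, so the log2 change was 0.37 (limma SE 0.08, adjusted p = 0.0298 by Benjamini-Hochberg). SS18, the subunit fused to SSX in synovial sarcoma, read 1062, 1021 and 967 units in controls and 729, 812 and 722 units with ING2 siRNA, so the log2 change was -0.43 (SE 0.09, limma adjusted p = 0.0266). Both were without overlap and passed after cyclic loess. Values that did not pass were 0.28 for ACTL6B, the neuronal counterpart of ACTL6A, -0.38 for the PBAF subunit PBRM1, -0.09 for the PBAF subunit ARID2, and 0.13 and 0.02 for the SMARCD1 counterparts SMARCD2 and SMARCD3. ACTB, the actin that joins ACTL6A in the complex, had a value of 0.01.

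NuA4 and INO80 share ACTL6A with BAF. In NuA4, a histone acetyltransferase that also exchanges H2A.Z, 4 of 17 genes fell and none rose, 23.5% of the list against 4.67% of all genes lower, with a median of -0.08. All 17 lay above the median intensity (lowest percentile 52.8), and brighter genes leaned lower on these arrays. Of the 7156 genes at or above SMARCD1 in intensity, 646 passed as lower and 112 as higher, with a median of -0.07. YEATS4, the histone reader GAS41, read 216, 272 and 359 units in controls and 145, 179 and 131 units after ING2 siRNA, 54.3% of control (log2 change -0.88, SE 0.17, limma adjusted p = 0.0266). MBTD1, which reads methylated histone H4, fell by 0.54 on the log2 scale (SE 0.13, adjusted p = 0.0400), and ING3 and MEAF6, both scaffold partners of the catalytic module, fell by 0.40 (adjusted p = 0.0455) and 0.41 (0.0339). After cyclic loess MEAF6 had an adjusted p of 0.0528 and the other 3 passed. After quantile normalization ING3 (0.0510) and MEAF6 (0.0586) did not pass, and with probe sets averaged MEAF6 was at -0.15 (adjusted p = 0.188). In the INO80 complex, which slides nucleosomes and exchanges histone variants, 1 of 14 genes fell and none rose (7.14%), with a median of 0.03. After quantile normalization 1 rose and 0 fell, and with the most variable probe set per gene 2 rose and 1 fell. The INO80 gene that fell in the deposited values was UCHL5, a deubiquitinase shared with the proteasome. UCHL5 read 1422, 1699 and 1667 units in controls and 1161, 1302 and 1033 units after ING2 siRNA. Its log2 change was -0.46 (SE 0.11, limma adjusted p = 0.0369, 0.0539 after cyclic loess and 0.0595 after quantile normalization).

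Of 18 ATPases of other remodeler families, 2 fell and none rose, 11.1% of the list against 4.67% of all genes lower, with a median of 0.02. After quantile normalization or cyclic loess 0 fell and 1 rose. All but 1 of the 18 lay above the median intensity. Of the 7156 genes at or above SMARCD1 in intensity, 646 passed as lower and 112 as higher in the deposited values. CHD1, which acts on transcribed chromatin, read 640, 803 and 735 units in controls and 476, 601 and 537 units with ING2 siRNA, so the log2 change was -0.43 (SE 0.11, limma adjusted p = 0.0457). ATRX, which places histone H3.3 in heterochromatin, had a log2 change of -0.44 (SE 0.10, adjusted p = 0.0362), with 1535, 1827 and 1704 units in controls and 1120, 1392 and 1223 units after ING2 siRNA. Neither passed after cyclic loess (adjusted p = 0.0593 for CHD1 and 0.0562 for ATRX). In the same scaling CHD4, the NuRD ATPase, passed as higher (adjusted p = 0.0418), with 0.29 and adjusted p = 0.0560 in the deposited values.

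Among 10 genes known from other cells to depend on SMARCA4, SMARCA2 or ACTL6A, 0 passed the limma threshold, and 4 had an unadjusted p under 0.05, all with a value above 0, against 32.9% of all genes in either direction and 19.4% higher. The list median was 0.08. CDKN1A, the cell cycle inhibitor p21, read 1667, 1557 and 1570 units in controls and 1810, 1832 and 1986 units after ING2 siRNA (log2 change 0.23, SE 0.08, adjusted p = 0.0865). HMOX1, heme oxygenase, had a log2 change of 0.23 (SE 0.08, adjusted p = 0.0871). Values for KLF4 (0.01) and WWC1 (0.10), genes known to be held down by ACTL6A in epithelial cells, did not pass, with an SE of 0.10 for KLF4 and 0.08 for WWC1. After quantile normalization 2 genes of this list passed as higher, and after cyclic loess 0. No gene of these 5 lists passed when control replicate 2, control replicate 3, ING2 siRNA replicate 1 or ING2 siRNA replicate 3 was left out. Without control replicate 1, 4 of the other SWI/SNF subunits and 5 of the other ATPases passed, and without ING2 siRNA replicate 2, 4 and 3.

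**Figure D4:**
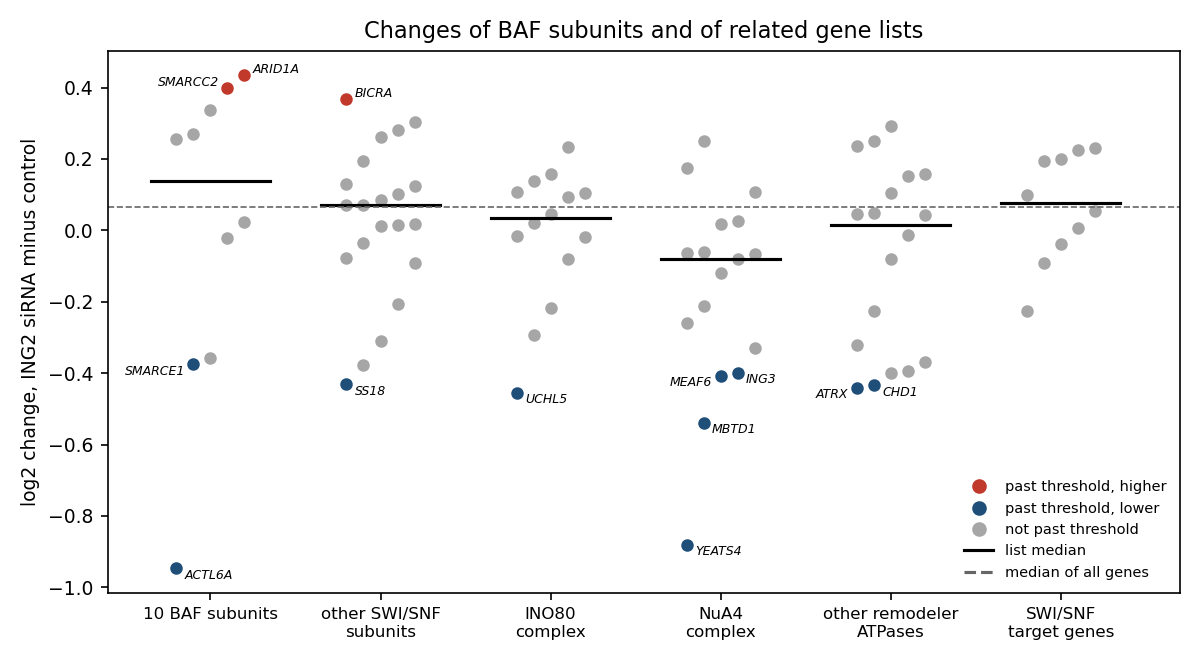
Log2 change, ING2 siRNA minus control (y axis), of each gene in the 10 BAF subunits and in 5 related lists (x axis); red and blue points passed a limma adjusted p under 0.05 over all genes, grey points did not, black bars are list medians and the dashed line is the median of all genes. ACTL6A at -0.95 and YEATS4 at -0.88 are the lowest points of the lists shown.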

How the data were processed

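The authors deposited 1 linear intensity value per probe set and array, and the submitters' processing notes name RMA and R 2.12. The sources used here do not give the step from RMA to linear values, nor any filter. Deposited values were turned to log2 with no pseudocount and no filter. Genes were named through a platform annotation dated 2016, with symbols updated by gene identifier to RefSeq (GRCh38.p14). Each gene is represented by its brightest probe set over the 6 arrays. Groups were compared with limma 3.58.1 (lmFit, eBayes) in R 4.3.3 over all 19777 genes, ING2 siRNA minus control, with Benjamini-Hochberg adjustment and a threshold of 0.05. Percentiles rank genes by mean log2 intensity. The fit was tested on simulated data with independent noise per gene. That simulation held no differences between whole arrays, so it cannot show how the calls respond to them.

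The 10 genes and the related lists were chosen with earlier results of these data known, and ACTL6A for its change in this comparison. Named were the 10 genes with all their probe sets, ING2, every gene of a related list past the threshold or, where a list had none, its 2 genes of smallest p, alternative subunits, and the 5 genes nearest to ACTL6A. KLF4, WWC1, ACTB, CHD4, LUM, DCN and LYZ were named, and the change of SNAI2 given, after their values were seen. Alternatives were median centring, quantile normalization, cyclic loess, a filter on dim probe sets, other choices of probe set, an intensity trend with robust eBayes, the replicate number as a block and leaving out each array. Leaving out _x_at probe sets was added after seeing the data. Precision is limited by 3 arrays per group.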

Additional observations from a re-analysis of the deposited data

How the results depend on the processing

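The log2 change of ACTL6A moved by less than its SD in each alternative run, and lay between -1.08 and -0.79 in the fits that each left out 1 array. In those fits the members passing numbered 0 to 6, other SWI/SNF subunits 0 to 4, INO80 genes 0 to 1, NuA4 genes 0 to 5, other remodeler ATPases 0 to 5, SWI/SNF target genes 0 and all genes 2 to 2613, and the members' median was 0.12 to 0.16. Median centring left 2 members. Quantile normalization gave 2 NuA4 genes (both lower), 1 ATPase (higher, where the deposited values gave 2 lower), 2 target genes (higher) and 1 INO80 gene, which was higher instead of lower. Cyclic loess gave 0 INO80 genes and 1 ATPase (higher). Without dim probe sets 4 other SWI/SNF subunits and 4 ATPases passed. With probe sets averaged per gene 1 member (ACTL6A), 5 other subunits and 2620 genes passed, and the members' median was -0.015. With the most variable probe set per gene (by interquartile range), 5 other subunits, 3 INO80 genes (2 higher), 7 NuA4 genes (2 higher), 5 ATPases (all lower), 1 target gene and 3260 genes passed, and that median was -0.17. An intensity trend with robust eBayes gave 4 other subunits, 4 ATPases, 1 target gene and 2407 genes. Without _x_at probe sets the median was 0.00095. The cause of these differences was not tested.

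Same-numbered arrays of the groups had correlated deviations from the group means for number 1 (0.26) and number 2 (0.29) but not for number 3 (-0.02). Arrays of different number had correlations from -0.31 to 0.10, below those of numbers 1 and 2. Because number 3 differed, the numbers were not taken to pair the samples, and a pairing was neither shown nor excluded. With the replicate number as a block 6 members, 6 other subunits, 2 INO80 genes, 6 ATPases and 3508 genes passed. Without the block the counts were 4, 2, 1, 2 and 1640. The fits use 3 arrays per group, and the deposited table gives no signal over background, so a low change in a dim probe set was not detectable at this precision.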
